A study of Homo sapiens with 12 samples.

Results

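hsa-miR-1269a and hsa-miR-1269b, here miR-1269a and miR-1269b, are human microRNAs (miRNAs) whose level is known to be raised in hepatocellular carcinoma, and miR-1269a is also studied in colorectal cancer. They were picked by name, as 2 of the 2652 mature miRNAs listed in each deposited table, and both were found in all 12 libraries. The libraries were made from Huh7, an established human hepatocellular carcinoma cell line, in 4 independent experiments with 3 conditions each. Control cells received the solvent DMSO and no 4-thiouridine (4SU), DMSO cells received DMSO with 500 µM 4SU, and PlaB cells received pladienolide B (PlaB) with 500 µM 4SU, each for 4 h. Huh7 is a single tumour-derived line and carries the changes of its tumour in all 3 conditions. RNA of every condition was alkylated with iodoacetamide before small RNA libraries were prepared.

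A miRNA is cut out of a hairpin in a longer primary transcript, first in the nucleus by Drosha and then in the cytoplasm by Dicer, and 1 strand of the duplex is loaded into an Argonaute protein. The seed near its 5′ end pairs with target mRNAs. Many miRNA hairpins lie in introns, so that splicing and processing act on the same transcript. PlaB binds SF3B1, a component of the U2 snRNP, and blocks an early step of spliceosome assembly. In SLAMseq, 4SU enters RNA made during the labelling, and alkylated 4SU is read as C where the genome has T. The share of covered T positions read as C, the T>C conversion rate, therefore follows newly made miRNA, while the CPM, the reads of a miRNA scaled to a common library total, follow the whole pool.

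The mature sequences are shown first because the 2 miRNAs are told apart by 1 base. They come from the RefSeq table on GRCh38.p14, and the capitals mark the seed (bases 2 to 8), which is the same in both.
miR-1269a: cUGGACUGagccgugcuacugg
miR-1269b: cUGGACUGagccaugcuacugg
Among the 2370 human mature miRNAs of that table, only these 2 have this seed, and every other one is at least 7 edits away from either. In the next pair of lines the capital marks the 1 base of 22 that differs, G13A from miR-1269a to miR-1269b, counted from the 5′ end.
miR-1269a: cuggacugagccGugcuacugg
miR-1269b: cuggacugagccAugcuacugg
Capitals in the last pair mark the 5 U positions (2, 7, 14, 17 and 20) at which a T>C conversion can be read, and these are the same in both.
miR-1269a: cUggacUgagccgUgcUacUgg
miR-1269b: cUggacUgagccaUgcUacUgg

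The sequence of miR-1269a has 1 exact place in the GRCh38 genome, chr4:66276890-66276911 on the plus strand, within the MIR1269A hairpin. In GENCODE version 44 this place lies in an intron of ENSG00000287383, a lncRNA gene on the opposite strand. The annotated place of miR-1269b is chr17:12917313-12917334 on the minus strand, within the MIR1269B hairpin, in an intron of ARHGAP44, a protein-coding gene on the opposite strand. A second exact copy of miR-1269b lies at chr10:14717408-14717429 on the minus strand, in an intron of FAM107B, a protein-coding gene on the same strand, with no annotated hairpin. miR-1269b also has 18 places with 1 mismatch, of which 13 have T in the genome where the miRNA has C, and 12 of those 13 differ at base 1. miR-1269a has 2 places with 1 mismatch, which are both exact places of miR-1269b. The lines below give an exact copy and one of the places that differ at base 1, written as DNA, with the differing base in capitals.
copy of miR-1269b at chr10:14717408-14717429: ctggactgagccatgctactgg
place at chr12:27479971-27479992 (minus strand): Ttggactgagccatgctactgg

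The 2 annotated hairpins differ more than the mature miRNAs do. The MIR1269A hairpin, 105 bases long, holds miR-1269a at bases 67 to 88, on its 3′ arm, and RNAfold gave it a minimum free energy of -70.5 kcal/mol with 21 of the 22 mature bases paired. The MIR1269B hairpin is 75 bases long and holds miR-1269b at bases 9 to 30, near its 5′ end. Its computed energy was -29.9 kcal/mol with 14 mature bases paired. These are predictions for the reference sequence, and no deposited value bears on the hairpins themselves.

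Total reads on mature miRNAs ranged from 1522210 to 3880241 per library. Over all miRNAs the T>C rate ranged from 0.0225% to 0.0319% in Control, from 0.246% to 0.290% in DMSO and from 0.135% to 0.171% in PlaB libraries. The hepatocyte miRNA miR-122-5p had 55353 to 105331 CPM, and the blood miRNA miR-223-3p at most 3.03 CPM. The neuronal miR-124-3p reached at most 4.97 CPM, the muscle miR-1-3p at most 10.2 CPM and miR-206 was at 0 in every library, while miR-126-3p of endothelium had 385 to 632 CPM and miR-143-3p of smooth muscle 43.0 to 137 CPM.

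The reads of the 2 miRNAs differed in how they mapped. Of 120291 miR-1269a reads over the 12 libraries, 157 mapped to several places (0.131%), and the share ranged from 0.0351% to 0.227% between libraries. Of 56565 miR-1269b reads, 56545 did (99.96%), with 99.8% to 100% per library, so that 20 reads in all mapped to 1 place. Among the 158 miRNAs above 100 CPM in every library, 10 had over 99% multi-mapping reads, miR-1269b among them, and 113 had under 1%, miR-1269a among them. The submitters' rule for placing such reads is not given in the sources used here. The part of mapping in the results for miR-1269b below was not tested.

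**Figure D1:**
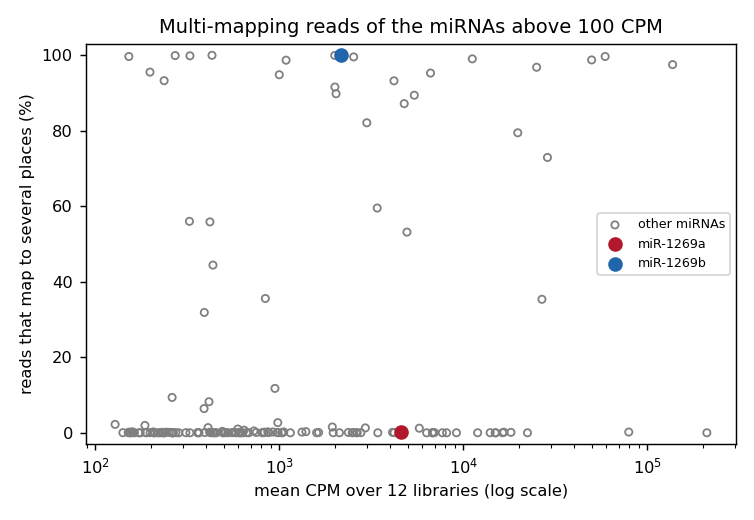
Share of reads that map to several places (vertical axis, %) against mean CPM over 12 libraries (horizontal axis, log scale), with each point 1 of the 158 miRNAs above 100 CPM in every library. miR-1269a lies at the bottom at 0.131% and miR-1269b at the top at 99.96%.

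Both miRNAs were abundant. By mean CPM miR-1269a ranked 34 and miR-1269b ranked 50 of the 2652 miRNAs. miR-1269a had 5489.7, 4344, 4716 and 4480.4 CPM in Control replicates 1 to 4, 5099.9, 3525, 4354 and 4320.3 CPM in DMSO, and 5780.4, 3818, 4841 and 4576 CPM in PlaB. Replicate 1 was the highest and replicate 2 the lowest in every condition, and the 3 conditions overlapped. miR-1269b had 2478, 2094, 2091 and 1802 CPM in Control, 2471, 1827, 1906 and 2030.4 CPM in DMSO, and 2726, 1922, 2258 and 2268 CPM in PlaB. Here too replicate 1 was the highest in each condition and the conditions overlapped.

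In PlaB the level of miR-1269a was 4754 ± 810.2 CPM (SD, n = 4) against 4325 ± 643 in DMSO and 4757 ± 512 in Control. For miR-1269b it was 2294 ± 330.3 CPM in PlaB, 2059 ± 287 in DMSO and 2116 ± 277 in Control. No read count comparison of either miRNA passed edgeR's quasi-likelihood test with Benjamini-Hochberg adjustment over 533 miRNAs. For PlaB against DMSO the log2 fold change of reads was 0.13 (SE 0.12, adjusted p = 0.946) for miR-1269a and 0.15 (SE 0.12, adjusted p = 0.938) for miR-1269b. For DMSO against Control it was -0.12 (adjusted p = 0.691) and -0.03 (adjusted p = 0.960), and for PlaB against Control 0.00 (adjusted p = 0.995) and 0.12 (adjusted p = 0.725). Of the 2 miRNAs, 0 had an unadjusted p under 0.05 in any of these comparisons and 0 were called by DESeq2. The share of all miRNAs called by edgeR in either direction was 0.375% for PlaB against DMSO, while Control differed from DMSO for 6.00% and from PlaB for 6.75%. Since each library came from a whole culture, fewer cells with a miRNA and less of it per cell cannot be told apart.

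Within experiments the levels moved together. From DMSO to PlaB the CPM of miR-1269a was 13.3%, 8.31%, 11.2% and 5.91% higher in experiments 1 to 4, and that of miR-1269b 10.3%, 5.19%, 18.5% and 11.7% higher. Such a higher value in all 4 experiments was found for 6.33% of the 158 miRNAs above 100 CPM. The exact sign-flip test over 4 pairs gave p = 0.125 for each miRNA, the smallest it allows. From Control to DMSO miR-1269a was lower in 4 of 4 experiments, with changes between -18.9% and -3.57% (exact sign-flip p = 0.125), and 20.9% of the 158 miRNAs were lower in all 4. miR-1269b was lower in 3 of 4.

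**Figure D2:**
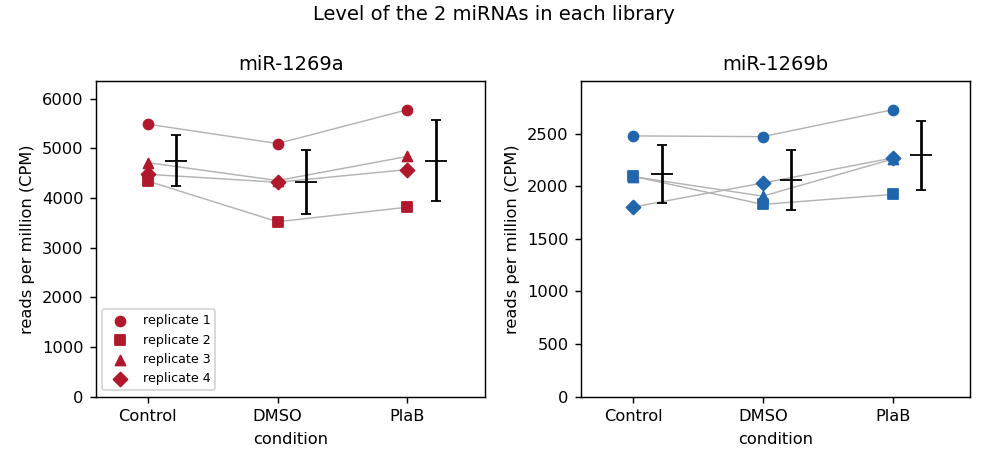
CPM (vertical axis) of miR-1269a and miR-1269b in the 12 libraries by condition (horizontal axis), with a symbol for each replicate number, grey lines joining libraries of the same number, and black bars for mean ± SD. The lines run upward from DMSO to PlaB in all 4 experiments, and the conditions overlap.

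Without 4SU, few T positions were read as C. In Control replicates 1 to 4 miR-1269a had 31, 36, 27 and 29 conversions, or rates of 0.0681%, 0.0697%, 0.0635% and 0.0546% of covered T positions. These rates lay close together, and their mean of 0.0640% ± 0.0068 (SD, n = 4) ranked 12 of the 158 miRNAs, whose median was 0.0177%. miR-1269b had 2, 3, 0 and 0 conversions in the same libraries, with a mean rate of 0.0056% ± 0.0065 (rank 120). The 0 of 18354 and 0 of 20618 covered T positions in Control replicates 3 and 4 allow rates of up to 0.0163% and 0.0146%.

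With 4SU, the rates of both rose. miR-1269a had 486, 410, 236 and 202 conversions in DMSO replicates 1 to 4, or rates of 0.494%, 0.715%, 0.538% and 0.478%. All 4 lay above every Control library, which held for 67.7% of the 158 miRNAs, and replicate 2 was the highest. miR-1269b had 34, 27, 41 and 24 conversions in DMSO, or rates of 0.0733%, 0.0933%, 0.220% and 0.125%. These too lay above every Control library, with replicate 3 the highest, from 41 conversions at 18667 covered T positions (95% Wilson interval 0.162% to 0.298%). The rate was 3.12 higher on the log2 scale for miR-1269a (SE 0.28, edgeR quasi-likelihood, Benjamini-Hochberg adjusted p = 1.11e-12) and 4.30 higher for miR-1269b (SE 0.88, adjusted p = 4.69e-05). Without Control replicate 2, which holds 3 of the 5 Control conversions, the value of miR-1269b was 5.00. Of the 158 miRNAs 79.7% were called higher in DMSO than in Control, and the median log2 fold change was 3.13. The mean DMSO rate of 0.556% ± 0.109 (SD, n = 4) put miR-1269a at rank 25, and that of 0.128% ± 0.0648 put miR-1269b at rank 95, around a median of 0.183%.

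Under PlaB the rates of both miRNAs fell. In PlaB replicates 1 to 4 miR-1269a had 45, 82, 69 and 91 conversions, or rates of 0.103%, 0.218%, 0.180% and 0.210%. Replicate 1 was the lowest, all 4 lay below every DMSO library, and all 4 lay above every Control library, as for 38.0% of the 158 miRNAs. The mean was 0.178% ± 0.0525 (SD, n = 4), 0.320 times the DMSO mean. On the log2 scale the fitted rate fell by 1.65 (SE 0.26, edgeR quasi-likelihood, Benjamini-Hochberg adjusted p = 3.94e-06), and it was lower in 4 of 4 experiments. In PlaB it was still 1.47 higher than in Control (SE 0.28, edgeR adjusted p = 2.28e-05).

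miR-1269b had 0, 5, 15 and 7 conversions in PlaB replicates 1 to 4, or rates of 0%, 0.0271%, 0.0864% and 0.0336%. The 0 of 19971 covered T positions in replicate 1 allows a rate of up to 0.0150%. Replicate 3 was the highest and overlapped the DMSO range, whose lowest library had 0.0733%, and replicate 1 overlapped Control. Within each experiment the PlaB rate was below the DMSO rate, in 4 of 4, by 0.0733, 0.0662, 0.133 and 0.0913 percentage points. Over the 158 miRNAs, log2 rates of PlaB and DMSO libraries with the same number hardly correlated (median r 0.102), so pairing adds little here. The mean of 0.0368% ± 0.0362 (SD, n = 4) was 0.288 times that of DMSO. The fitted rate fell by 1.79 on the log2 scale (SE 0.72, edgeR quasi-likelihood, Benjamini-Hochberg adjusted p = 0.0433). This call was lost when any of DMSO replicates 1, 2, 3 and 4 or PlaB replicates 1, 2 and 4 was left out (log2 fold changes of -1.98, -1.91, -1.40, -1.79, -1.36, -1.67 and -1.75, edgeR adjusted p from 0.0549 to 0.152), while without PlaB replicate 3 the value was -2.61 (edgeR adjusted p = 0.0091). Against Control the PlaB rate was 2.51 higher (SE 0.94, edgeR adjusted p = 0.0234), and this call was lost with a replicate block (2.17, edgeR adjusted p = 0.0538) and without Control replicate 3 (2.17), Control replicate 4 (2.13) or PlaB replicate 3 (1.69), with adjusted p from 0.0609 to 0.161. Without Control replicate 2 it was 3.22.

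The lower rate in PlaB than in DMSO was found for many miRNAs. Of the 158 tested, 44.3% were called lower, and the median log2 fold change was -1.20. Ordered from the lowest, miR-1269b ranked 42 and miR-1269a ranked 49. In PlaB against Control 51.9% were called higher, with a median of 1.81. These shares of 44.3% and 51.9% became 66.7% and 78.3% among the 60 miRNAs above 1000 CPM in every library, both members included. Without a model, the PlaB and DMSO libraries did not overlap, with PlaB the lower, for 43.0% of the 158 miRNAs, miR-1269a among them and miR-1269b not. Exact permutation of 4 against 4 libraries gave a two-sided p = 0.0286 for the fall of miR-1269a, the smallest it allows, and p = 0.0571 for miR-1269b. Adjusted over the 18 such comparisons made, these exact permutation values became 0.129 and 0.206.

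**Figure D3:**
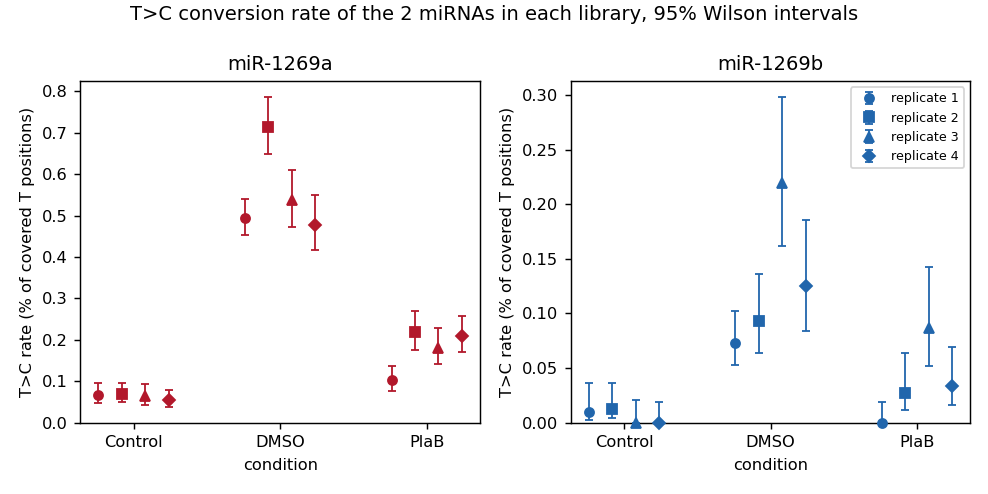
T>C conversion rate (vertical axis, % of covered T positions) of miR-1269a and miR-1269b in the 12 libraries by condition (horizontal axis), with a symbol for each replicate number and 95% Wilson intervals that cover counting error only. The vertical scales differ. The PlaB libraries of miR-1269a lie between Control and DMSO, and for miR-1269b PlaB replicate 3 at 0.0864% overlaps the DMSO range.

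**Figure D4:**
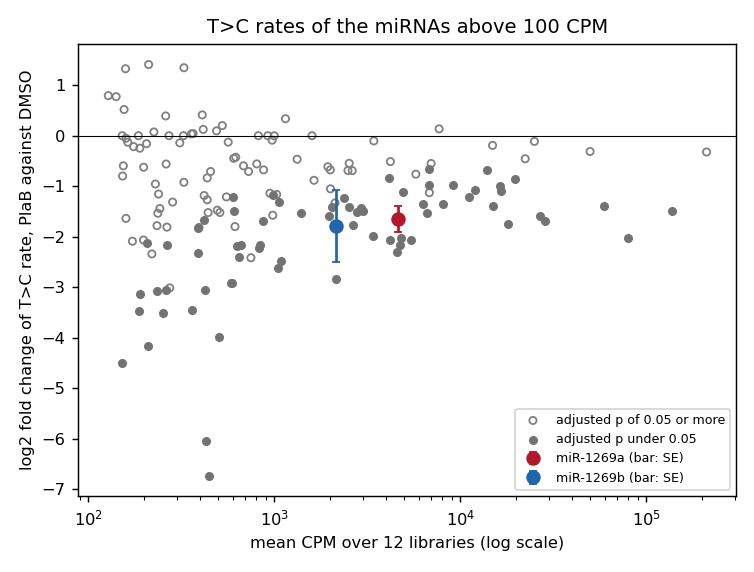
Log2 fold change of the T>C rate in PlaB against DMSO (vertical axis) against mean CPM (horizontal axis, log scale) for the 158 miRNAs above 100 CPM in every library, with filled points for those called by edgeR. miR-1269a at -1.65 and miR-1269b at -1.79 lie below the median of -1.20 and within the cloud, and the SE bar of miR-1269b is the wider.

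The PlaB/DMSO ratio, the share of the labelling that was left under PlaB, varied widely when computed for each replicate number. It is mean PlaB minus mean Control rate, divided by mean DMSO minus mean Control rate. Its value was 0.231 for miR-1269a and 0.255 for miR-1269b, beside a median of 0.321 over the 126 miRNAs called higher in DMSO than in Control, with quartiles of 0.189 and 0.585. By experiment the ratio of miR-1269a was 0.0818, 0.230, 0.246 and 0.366, and that of miR-1269b was -0.159, 0.183, 0.394 and 0.269. Experiment 1 was the lowest for both, and the negative value of miR-1269b rests on 0 conversions in PlaB and 2 in Control. How much of this spread is counting error and how much lies between experiments was not tested. Without PlaB replicate 3 the ratio of miR-1269b was 0.120.

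More reads were counted for miR-1269a than for miR-1269b, and its T>C rate was higher. Of the miR-1269b reads 99.96% mapped to several places, and its sequence has 2 exact places in the genome, against 1 for miR-1269a. How such reads were placed is not given, and the part of mapping in the ratios below was not tested. The ratio of miR-1269a to miR-1269b reads was 2.22, 2.07, 2.25 and 2.49 in Control replicates 1 to 4, 2.06, 1.93, 2.28 and 2.13 in DMSO and 2.12, 1.99, 2.14 and 2.02 in PlaB. It was highest in Control replicate 4, and the conditions overlapped. The mean log2 ratio of 1.05 ± 0.05 (SD, n = 4) in PlaB and 1.07 ± 0.10 in DMSO differed by less than the spread between replicates (exact permutation p = 0.743).

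The T>C rate of miR-1269a was above that of miR-1269b in 12 of 12 libraries. The study states that its method cannot directly compare how fast different miRNAs are made, which would need a time course. The ratios below are therefore ratios of measured T>C rates and not of synthesis. In DMSO it was 6.74, 7.66, 2.45 and 3.83 times as high in replicates 1 to 4, and in PlaB replicates 2 to 4 it was 8.05, 2.09 and 6.24 times as high. Replicate 3 had the smallest ratio in both conditions, and in PlaB replicate 1 miR-1269b had no conversion. Summed over libraries, the rate was 0.552% against 0.111% in DMSO and 0.176% against 0.0352% in PlaB, ratios of 4.96 and 5.00. Over the 8 libraries with 4SU the mean log2 ratio was 2.58 ± 1.34 (SD, with 0.5 conversions added), and the exact sign-flip test gave p = 0.0078, the smallest it allows, if these libraries are taken as independent. With the 4 experiments as units, each the mean of its DMSO and PlaB libraries, the exact sign-flip test gave p = 0.125, which is also the smallest it allows. In Control, with 123 conversions against 5, the summed rates were 0.0638% and 0.0060%, and miR-1269a was higher in 4 of 4 libraries (exact sign-flip p = 0.125, the smallest for 4). A higher rate of miR-1269a was thus also measured without 4SU.

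Between DMSO and PlaB the log2 ratio of the 2 rates changed by 0.75 (exact permutation p = 0.600 for 4 against 4 libraries). The replicates spread over 1.28 to 2.91 in DMSO and 1.02 to 5.38 in PlaB, and without PlaB replicate 1 the change was -0.06. No difference between the 2 miRNAs in their response to PlaB was detectable at this depth.

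Some reads of miR-1269a carried more than 1 conversion. In DMSO its 1334 conversions lay on 1159 reads, or 1.15 per read, which 10 of the 109 miRNAs with at least 50 such reads exceeded (median 1.03). In PlaB 287 conversions lay on 266 reads (1.08 per read), and in Control 123 lay on 123. miR-1269b had 126 conversions on 124 reads in DMSO and 27 on 27 in PlaB. Reads covered between 4.96 and 4.98 of the 5 T positions of miR-1269a and between 4.79 and 4.86 of those of miR-1269b, depending on the library.

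**Figure D5:**
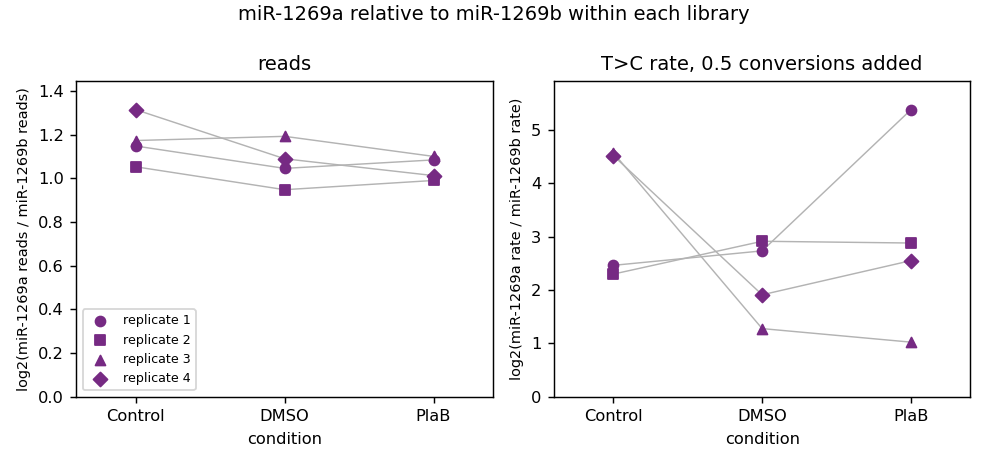
Log2 ratio of miR-1269a to miR-1269b (vertical axes) in reads and in T>C rate, with 0.5 conversions added, for the 12 libraries by condition (horizontal axis), with a symbol for each replicate number and grey lines joining libraries of the same number. Every ratio is above 0. The read ratios stay between 0.95 and 1.31, whereas the rate ratios run from 1.02 to 5.38.

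Other liver miRNAs gave a scale for these values. miR-122-5p, the most abundant miRNA of hepatocytes and a regulator of lipid metabolism, had a T>C rate of 0.323% ± 0.0350 (SD, n = 4) in DMSO and 0.0798% ± 0.0037 in PlaB. Its rate fell by 2.02 on the log2 scale (SE 0.15, edgeR adjusted p = 1.29e-13). miR-21-5p, a miRNA raised in many tumours, had 0.332% ± 0.0552 in DMSO and 0.266% ± 0.0379 in PlaB. Its log2 fold change of -0.32 did not pass the test (SE 0.14, edgeR adjusted p = 0.0599). The log2 fold changes of miR-1269a and miR-1269b, -1.65 and -1.79, lay between those of these miRNAs.

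Of 20 miRNAs listed as elevated in hepatocellular carcinoma, 15 were tested for T>C conversions. At an adjusted p under 0.05, edgeR called the DMSO rate above Control for 14 (93.3%, beside 79.7% of all 158). It called the PlaB rate below DMSO for 8 (53.3%, beside 44.3%) and above Control for 10 (66.7%, beside 51.9%). Among the 60 miRNAs above 1000 CPM in every library, the DMSO rate was called above Control for 91.7%. There the PlaB rate was called below DMSO for 66.7% and above Control for 78.3%. The lists here and below were not matched by abundance to the 158, so a share above theirs is no result about a list. The median log2 fold change for PlaB against DMSO was -1.35, beside -1.20 for all 158 tested. The list ran up to miR-25-3p of the MCM7 intron cluster, with a log2 fold change of -0.19 (edgeR adjusted p = 0.365). Of 18 miRNAs listed as lowered in hepatocellular carcinoma, 8 were tested. In DMSO 6 (75%, beside 79.7% of all 158) were called higher than in Control and 1, miR-26a-5p, lower. In PlaB 5 of these 8 (miR-122-5p, miR-125b-5p, miR-101-3p, miR-99a-5p and miR-100-5p) were called lower than in DMSO (62.5%, beside 44.3%), with a list median of -1.42 beside -1.20. Against Control 4 (50%, beside 51.9%) were called higher in PlaB (miR-122-5p, miR-125b-5p, miR-101-3p and miR-99a-5p) and miR-26a-5p was called lower.

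The study placed 16 miRNAs of its tested set in lncRNA introns, among them miR-1269a, whose GENCODE lncRNA lies on the opposite strand. That set was filtered on these libraries for rates above Control in DMSO and for mean PlaB rates not below Control, so the list is not independent evidence of a direction, and 16 of 16 higher in DMSO than in Control is what the filter selected for (79.7% of all 158 were called). In PlaB 10 of 16 were called lower than in DMSO (62.5%, beside 44.3%), with a list median of -1.35 beside -1.20. Against Control 8 were called higher in PlaB (50%, beside 51.9%). Both comparisons use rates on which this list was filtered, whereas the 158 were filtered on CPM only. Differences between these shares are therefore no result about lncRNA introns. The lowest values for PlaB against DMSO were those of miR-200c-3p, known to restrain epithelial-mesenchymal transition, at -3.13 (SE 1.11, edgeR adjusted p = 0.0225) and of miR-217-5p at -3.05 (SE 0.79, edgeR adjusted p = 0.0020). The highest was miR-374a-3p, at 0.04 with an edgeR adjusted p of 1. In read counts edgeR called 0 of 17, 0 of 15 and 0 of 16 tested members of the 3 lists for PlaB against DMSO. Among all 533 miRNAs it called 0.375%. The unadjusted p was under 0.05 for 0, 0 and 1 list members, and DESeq2 called 0 of each list. For DMSO against Control edgeR called miR-130a-3p of the lncRNA list higher (6.25% of that list, beside 6.00% of all 533). It called 0 members of the other lists, where 1 and 0 had an unadjusted p under 0.05 and DESeq2 called 0. For PlaB against Control edgeR called 0 of any list (beside 6.75% of all 533), with 1, 0 and 1 at an unadjusted p under 0.05 and 0 by DESeq2. With lists this short, these counts do not set the lists apart from all miRNAs.

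By likeness of log2 CPM over the 12 libraries, miR-1269b was the miRNA most like miR-1269a among the other 157 above 100 CPM, and miR-1269a the most like miR-1269b (Pearson r = 0.870). Next to miR-1269a came miR-130b-5p (0.869), miR-25-3p (0.817), miR-423-3p (0.805) and miR-217-5p (0.798). Next to miR-1269b came miR-182-5p (0.862), miR-625-3p (0.802), miR-25-3p (0.793) and miR-331-3p (0.765). These correlations describe 12 libraries that share their totals, experiments and conditions.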

How the data were processed

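Small RNA libraries of Huh7 cells (Control, DMSO and PlaB, 4 each) were measured by SLAMseq. The authors trimmed the reads with Trim Galore, aligned them to GRCh38 and used SLAM-DUNK to count them on miRBase mature coordinates, with SNP masking and no mapping quality filter. The PlaB concentration is 500 µM in the labels and 1 µM in the study's methods. Per the methods, the samples DMSO A and DMSO B, taken here to be DMSO replicates 1 and 2, combine several sequencing runs. Each deposited table of the authors gives counts (reads, multi-mapping reads, reads with a conversion, conversions, covered T positions), a CPM value and the T>C rate as a fraction, printed here as a percent. Checked on the files, CPM equals reads over their total and the rate equals conversions over covered T positions.

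Reads were tested with edgeR 4.0.16 in R 4.3.3 (TMM, quasi-likelihood, 1 fit of 12 libraries, 533 miRNAs passing filterByExpr). Conversions were tested likewise with log covered T positions as an offset, over the 158 miRNAs above 100 CPM in all libraries. P-values were adjusted by Benjamini-Hochberg (threshold 0.05). The SE is the absolute log2 fold change divided by the root of F. Library values were compared by exact permutation (70 labelings) or sign flips, with 0.5 conversions added in log2 ratios of rates. Alternatives were DESeq2 1.42.0, a replicate block, other filters and scalings, and libraries left out. Genome places with up to 2 mismatches were searched on both strands, and hairpins folded with RNAfold 2.7.2. Values were computed in Python 3.11.15.

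The members and lists were chosen with earlier results of these data known. Named miRNAs are the 2 members, the 5 most like each in log2 CPM, miR-122-5p, miR-21-5p, and the list members with the 2 lowest and 2 highest changes of rate under PlaB. Cell type markers from a marker list were named to check the cell line, and other list members because a count was small. Libraries with the same replicate number correlated in their deviations of log2 CPM from the condition means (lowest r 0.208 over 158 miRNAs). The methods also describe 4 independent experiments, so numbers were taken as pairs. In log2 T>C rate little such correlation was seen. Its median r was -0.018 for DMSO with Control, 0.102 for PlaB with DMSO and 0.049 for PlaB with Control. Wilson intervals (95%) and the limit of 3 counts for a count of 0 cover counting error only, since reads are not independent molecules. In data simulated for PlaB against DMSO, 4-fold decreases were recovered for 98% of 50 changed miRNAs in reads (533 tested). In conversions (158 tested) it was 70% of 10. For 2-fold decreases, in as many miRNAs each, the shares were 56% and 0%. The simulation gave all miRNAs the same spread and Control the DMSO values, unlike the data.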

Additional observations from a re-analysis of the deposited data

Results flagged for a closer look

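Of 36 groups of 4 libraries looked at for the 2 miRNAs, 2 held a library far from the other three, and chance alone flags about 1 in 20 such groups. Reads of miR-1269a with a conversion carried 1.20 conversions each in PlaB replicate 4, against 1.02, 1.02 and 1.05 in PlaB replicates 1 to 3. Reads of miR-1269b with a conversion carried 1.08 conversions each in DMSO replicate 2 (27 conversions on 25 reads), against 1 in the other DMSO libraries. With those values tied, any library that differed from them would stand apart, so the 1 in 20 does not apply to this group.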

How the results depend on the processing

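The T>C results of miR-1269b rest on few conversions (Control 5, DMSO 126, PlaB 27). Of 651 values recomputed under an alternative, 588 kept their direction and side of the threshold or moved by less than the spread, among them all 60 refits of the conversions of miR-1269a. Exact tests of 4 pairs cannot pass 0.05. No read ratio without multi-mapping reads was computed, since 5 libraries held no such miR-1269b read. The cause of the changes below was not tested.

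For the conversions of miR-1269b in PlaB against DMSO, the log2 fold change ran from -2.61 to -1.36 with 1 library left out, and was -2.22 (edgeR adjusted p = 0.0585) without DMSO replicates 1 and 2. In PlaB against Control it ran from 1.69 to 3.22, and was 2.17 (edgeR adjusted p = 0.0538) with the replicate block and 2.53 (edgeR adjusted p = 0.0694) with the 8 libraries alone. In the fits the replicate block changed no other call of the 2 miRNAs, and turned the read change of miR-1269a in PlaB against Control to -0.0035, with -0.081 to 0.10 when 1 library was left out. The read change of miR-1269b in DMSO against Control ran from -0.14 to 0.044. With reads that map to 1 place (7 in Control, 13 in DMSO, 0 in PlaB) its fitted values were 0.54 for DMSO against Control, -4.51 for PlaB against DMSO and -3.97 for PlaB against Control, which passed no test and are no bounds. In DMSO against Control the conversions of miR-1269b ran from 3.92 to 5.00, and every alternative passed. The log2 ratio of the 2 rates over DMSO and PlaB libraries, 2.58, had an exact sign-flip p of 0.125 with the 4 experiments as units (replicate block), chosen after seeing the data. The change of the rate ratio of the 2 miRNAs from DMSO to PlaB ran from -0.057 to 1.39 with 1 library left out, and was -0.024 as a difference of ratios after subtracting Control.

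Of all miRNAs, reads called 32 for DMSO against Control, but 59 with the block, 17 without DMSO replicates 1 and 2, 6 in the study's starting set, 0 above 1000 CPM and 16 to 39 with 1 library left out. For PlaB against DMSO reads called 2, but 6 with DESeq2, 6 with the block, 5 over all miRNAs with a read, 1 in the starting set, 0 or 1 with 1 library left out, and 0 with the 8 libraries alone, without DMSO replicates 1 and 2, above 1000 CPM, with RLE factors and with reads that map to 1 place. For PlaB against Control reads called 36, but 5 in the starting set and 0 above 1000 CPM. Conversions called 127, 70 and 83 for DMSO against Control, PlaB against DMSO and PlaB against Control, but 56, 40 and 48 of the 60 above 1000 CPM, where the share lower in PlaB than in DMSO was 66.7% in place of 44.3% and that higher in PlaB than in Control 78.3% in place of 51.9%, and 44 for PlaB against DMSO without DMSO replicates 1 and 2.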
